A study of Mus musculus with 4 samples.

Results

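Hox genes encode homeodomain transcription factors and lie in 4 clusters in the mouse genome, Hoxa, Hoxb, Hoxc and Hoxd. The 39 protein-coding genes of GENCODE mouse release 21 with a Hoxa, Hoxb, Hoxc or Hoxd symbol were all taken as members, out of 21938 protein-coding genes. There were 11 Hoxa genes, 10 Hoxb genes, 9 Hoxc genes and 9 Hoxd genes. The assay was ATAC-seq, in which a transposase cuts open chromatin, and a peak is an interval where such cuts were found to pile up. A Hox gene had a promoter peak where a peak came within 1 kb of any of its annotated transcript starts. Each cluster was also examined as a window, from 20 kb before its first gene to 20 kb after its last. On mm10, the windows were chr6:52135590-52280880 for Hoxa (145291 bp), chr11:96174316-96388256 for Hoxb (213941 bp), chr15:102901103-103056852 for Hoxc (155750 bp) and chr2:74648310-74785142 for Hoxd (136833 bp).

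Within a cluster the genes stand in the order in which they are used along the body axis. Genes of the same number in different clusters are paralogs that arose by duplication of an ancestral cluster. The low numbers pattern the hindbrain and neck, the middle numbers the trunk, and the high numbers the lumbar to tail region, the limbs and the genital tract. In ESCs (embryonic stem cells) the clusters are textbook targets of the Polycomb repressor complexes, and retinoic acid induces the low numbers first during differentiation.

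All libraries came from E14, a mouse ESC line grown in serum with LIF, to which pLKO lentivirus carrying a short hairpin RNA had been added. Puromycin at 2 μg/ml was then kept on the cells for 2 days, they were collected 2 days later, and about 50000 cells went into each reaction. The hairpin was against GFP in 1 library (shGFP) and against luciferase in 3 libraries (shLuc), neither of which is a mouse gene, so every library is a non-targeting control. The labels do not say whether the shLuc libraries came from separate cultures, and libraries with other hairpins were not analysed here.

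The lists hold positions only, with no height or score, the depth behind a peak is not known from them, and a missing peak does not show that chromatin was closed. They had 41943 peaks in shGFP and 17860, 41401 and 31585 peaks in shLuc replicates 1, 2 and 3. The list of shLuc replicate 1 stood apart by its length, so results are also given without it. In all libraries the start sites of Pou5f1, Nanog and Sox2, which define ESCs, had no peak within 1 kb. Over all protein-coding genes, 60.7%, 46.8%, 60.3% and 55.1% had a promoter peak in shGFP and in shLuc replicates 1, 2 and 3. Of 14 ESC marker genes, 6, 2, 6 and 7 had one, and Zfp42 and Tfcp2l1 had one in all 4. Of 4 fibroblast markers, 4, 3, 4 and 3 had one, and of 13 markers of endoderm, mesoderm, nerve and trophoblast, 5, 4, 8 and 5 had one. Their part in the results on Hox genes was not tested.

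The sequences below show what peaks were found on, and what they were not found on, in the clusters. The first 4 are the 250 bases before a RefSeq start site (GRCm38.p6), read along the gene's strand. Hoxd1 and Hoxa13, which had a promoter peak in every library, are set beside Hoxb1 and Hoxd13, a paralog of each that had one in no library and in 2 libraries. Hoxd1 is at chr2:74762730-74762979 on the plus strand, Hoxb1 at chr11:96365508-96365757 on the plus strand, Hoxa13 at chr6:52260881-52261130 on the minus strand, and Hoxd13 at chr2:74667975-74668224 on the plus strand. Capitals mark GGGCGG (the box bound by SP and KLF factors), CCAAT and TATAAA, on either strand.
Hoxd1 upstream: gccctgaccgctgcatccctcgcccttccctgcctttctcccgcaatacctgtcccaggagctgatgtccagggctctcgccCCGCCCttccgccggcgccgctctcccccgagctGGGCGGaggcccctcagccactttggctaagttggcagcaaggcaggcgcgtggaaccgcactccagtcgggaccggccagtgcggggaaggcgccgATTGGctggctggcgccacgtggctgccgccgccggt
Hoxb1 upstream: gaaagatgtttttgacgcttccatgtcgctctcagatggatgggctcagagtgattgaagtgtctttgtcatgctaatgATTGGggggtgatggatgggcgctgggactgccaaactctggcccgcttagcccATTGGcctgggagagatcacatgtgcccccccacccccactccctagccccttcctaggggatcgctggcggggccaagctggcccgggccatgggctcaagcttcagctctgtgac
Hoxa13 upstream: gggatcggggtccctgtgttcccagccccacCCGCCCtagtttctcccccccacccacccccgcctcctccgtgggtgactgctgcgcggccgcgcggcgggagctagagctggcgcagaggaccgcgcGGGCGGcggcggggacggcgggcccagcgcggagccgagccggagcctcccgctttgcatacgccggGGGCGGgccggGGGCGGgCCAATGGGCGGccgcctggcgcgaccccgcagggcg
Hoxd13 upstream: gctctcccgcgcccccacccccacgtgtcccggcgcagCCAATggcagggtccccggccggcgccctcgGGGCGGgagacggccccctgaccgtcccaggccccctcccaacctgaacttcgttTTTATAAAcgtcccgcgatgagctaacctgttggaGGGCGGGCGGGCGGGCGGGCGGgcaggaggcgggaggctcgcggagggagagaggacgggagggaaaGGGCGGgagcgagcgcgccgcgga

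The Hoxd1 and Hoxa13 sequences held 24 and 35 CpG dinucleotides and the Hoxd13 sequence 31, against 7 in Hoxb1. GC content was 71.6% in Hoxd1, 80% in Hoxa13, 74.4% in Hoxd13 and 59.2% in Hoxb1. GGGCGG was found 2 times in Hoxd1, 5 times in Hoxa13 and 7 times in Hoxd13, where 5 of the matches overlap in 1 run, and not in Hoxb1. CCAAT was found in all 4, once each in Hoxd1, Hoxa13 and Hoxd13 and 2 times in Hoxb1. TATAAA was found in Hoxd13 alone among them, as 2 matches on opposite strands that overlap. Peaks covered 244, 249, 250 and 249 of the 250 bases of Hoxd1 in shGFP and shLuc replicates 1, 2 and 3. They covered 100, 65, 105 and 95 bases of Hoxa13, those nearest the start, and 0, 0, 156 and 250 bases of Hoxd13. No library had a peak on any of the 250 bases of Hoxb1.

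The other 3 sequences lie away from Hox start sites, in the remaining intervals of the clusters where every library had a peak. They are given on the plus strand of GRCm38, and at most the central 300 bases of the interval that all 4 libraries covered are shown. The interval between Hoxb5 and Hoxb4 is at chr11:96311804-96312103, the interval before Hoxb13 at chr11:96190265-96190469, and the interval in an exon of Evx2, a homeobox gene beside Hoxd13, at chr2:74655870-74656169. Capitals mark GGGCGG, and neither CCAAT nor TATAAA was present.
Hoxb5 to Hoxb4 interval: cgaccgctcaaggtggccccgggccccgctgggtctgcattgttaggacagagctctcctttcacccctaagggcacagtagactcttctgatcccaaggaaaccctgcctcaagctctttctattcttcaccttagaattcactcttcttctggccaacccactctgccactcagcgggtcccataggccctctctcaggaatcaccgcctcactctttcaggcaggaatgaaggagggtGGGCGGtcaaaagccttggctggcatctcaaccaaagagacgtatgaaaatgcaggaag
Hoxb13 interval: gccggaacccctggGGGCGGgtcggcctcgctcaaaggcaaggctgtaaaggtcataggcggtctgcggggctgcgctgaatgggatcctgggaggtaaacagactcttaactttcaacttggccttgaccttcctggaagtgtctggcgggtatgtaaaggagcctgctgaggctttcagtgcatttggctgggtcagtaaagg
Evx2 interval: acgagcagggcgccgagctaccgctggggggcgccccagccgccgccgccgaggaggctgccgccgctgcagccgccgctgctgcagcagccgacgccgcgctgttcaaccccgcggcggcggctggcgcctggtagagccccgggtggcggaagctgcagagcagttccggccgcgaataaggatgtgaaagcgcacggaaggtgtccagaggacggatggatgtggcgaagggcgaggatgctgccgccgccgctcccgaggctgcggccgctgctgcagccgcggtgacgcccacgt

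The Evx2 interval had 42 CpG dinucleotides in 300 bases and a GC content of 74.3%. The Hoxb5 to Hoxb4 interval had 8 in 300 bases and 55%, and the Hoxb13 interval 8 in 205 bases and 57.6%.

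Few Hox genes had a peak at the start site, and the genes that had one differed between libraries. A promoter peak was found at 10 of 39 Hox genes in shGFP (25.6%) and at 2 (5.13%), 15 (38.5%) and 12 (30.8%) in shLuc replicates 1, 2 and 3. Over all protein-coding genes the percentages were 60.7% for shGFP and 46.8%, 60.3% and 55.1% for shLuc. The Hox share was lower than that of all coding genes in all 4 libraries, with a difference (Hox minus all coding genes) of -35.1 percentage points in shGFP and -29.3 ± 10.8 points in shLuc (SD, n = 3). In all 4 libraries 2 Hox genes had a promoter peak (5.13%), against 42.5% of all coding genes, and in none of the 4 there were 20 (51.3%), against 35.3%. The remaining 17 were split into 5 genes found in 3 libraries, 4 found in 2 and 8 found in 1. A peak in 1 library only was thus seen at 20.5% of Hox genes and at 4.39% of all coding genes. Without shLuc replicate 1, 7 Hox genes had a peak in all 3 libraries, against 52.5% of all coding genes, and 20 still had none.

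**Figure D1:**
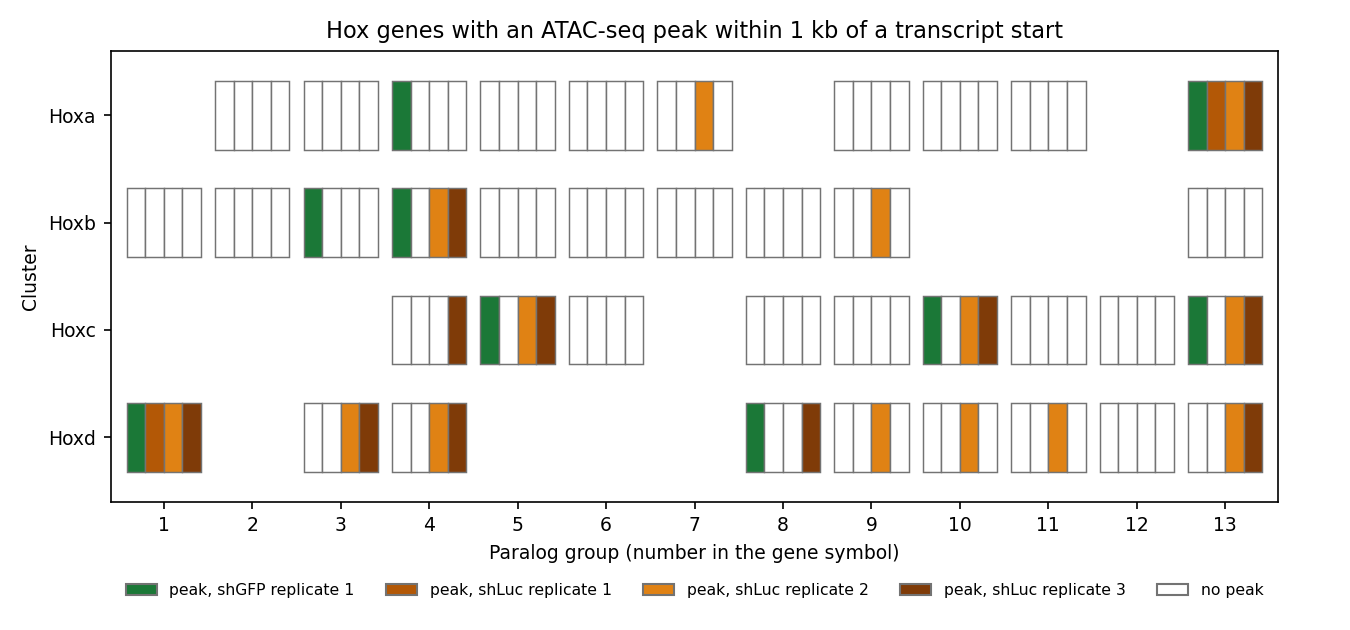
Hox genes with a promoter peak, by cluster (rows) and paralog group (columns), with 1 box per library in the order shGFP, shLuc replicate 1, 2 and 3, filled where a peak lay within 1 kb of a transcript start. Positions without boxes have no gene or are not shown, Hoxa13 and Hoxd1 are filled in all 4 libraries, and 20 genes are empty throughout.

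The 2 genes with a promoter peak in every library stand at opposite ends of their clusters. Hoxd1, an anterior gene of the Hoxd cluster (chr2:74762980-74765142), had peaks of 926 bp in shGFP and 878, 1006 and 1152 bp in shLuc, all of which covered the start site. The widths of the Hoxd1 peaks were alike, with shGFP inside the range of shLuc. Hoxa13, which patterns digits and the genital tract (chr6:52257694-52260880), had peaks of 906 bp in shGFP and 277, 371 and 1150 bp in shLuc, also on the start site. The Hoxa13 peaks were wide in shGFP and shLuc replicate 3 and narrow in shLuc replicates 1 and 2.

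Another 5 genes had a promoter peak in every library but shLuc replicate 1, and 4 of them are described here. Hoxb4, known for its effect on blood stem cell growth, had peaks of 994, 735 and 602 bp in shGFP and shLuc replicates 2 and 3. The first 2 covered the Hoxb4 start, and the peak of shLuc replicate 3 lay 83 bp from it. Hoxc13, which is needed for hair and nails, had the widest peaks of any Hox gene, at 1720, 1593 and 1206 bp. Hoxc10, a lumbar patterning gene, had peaks of 687, 1035 and 775 bp on its start. Hoxc5 was counted through these same peaks, because a long annotated Hoxc5 transcript starts beside Hoxc10, and they came within 244, 0 and 124 bp of that start. The nearest peaks to any start of these 4 genes in shLuc replicate 1 were 6103 bp (Hoxb4) to 135301 bp (Hoxc10) away.

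In the Hoxd cluster, 4 genes had a promoter peak in 2 libraries. Hoxd3 and Hoxd4 share 1 annotated start region and were counted through the same peak, of 639 and 633 bp in shLuc replicates 2 and 3. Hoxd13, a digit patterning gene, had peaks of 1122 and 1046 bp in the same 2 libraries. Hoxd8, a trunk gene, had peaks of 1433 bp in shGFP and 1111 bp in shLuc replicate 3. The 8 genes found in 1 library were spread over all clusters. In shGFP these were Hoxa4 (496 bp wide, 129 bp from the start) and Hoxb3 (499 bp wide, 762 bp from a start). In shLuc replicate 2 they were Hoxa7 (597 bp), Hoxb9 (1073 bp), Hoxd9 (1061 bp), Hoxd10 (643 bp, 42 bp from the start) and Hoxd11 (1317 bp). In shLuc replicate 3 it was Hoxc4 (912 bp), and shLuc replicate 1 had none of its own. The 5 single-library peaks of shLuc replicate 2 included 3 neighbouring genes of the Hoxd cluster, Hoxd9, Hoxd10 and Hoxd11.

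No promoter peak was found in any library at Hoxa2, Hoxa3, Hoxa5, Hoxa6, Hoxa9, Hoxa10, Hoxa11, Hoxb1, Hoxb2, Hoxb5, Hoxb6, Hoxb7, Hoxb8, Hoxb13, Hoxc6, Hoxc8, Hoxc9, Hoxc11, Hoxc12 and Hoxd12. Some of them had a peak just past the limit of 1 kb. The nearest were at Hoxa3 (1092 bp from a start, in shLuc replicate 2), at Hoxc11 (1372 and 1238 bp, in shLuc replicates 2 and 3), at Hoxb1 (1599 bp, in shLuc replicate 3) and at Hoxd12 (1822 bp, in shGFP). Inside the limit, the farthest was the Hoxb3 peak at 762 bp.

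Among the counts by cluster, that of Hoxd depended most on 1 library. In at least 1 library a promoter peak was found at 8 of 9 Hoxd genes, 4 of 9 Hoxc genes, 4 of 11 Hoxa genes and 3 of 10 Hoxb genes, against 64.7% of all coding genes. Hoxd9, Hoxd10 and Hoxd11 were found in shLuc replicate 2 only, and without that library the Hoxd count was 5, beside 4 for Hoxc, 3 for Hoxa and 2 for Hoxb. By library the Hoxd count rested on shLuc, with 7 and 5 genes in replicates 2 and 3, 1 in replicate 1 and 2 in shGFP. The Hoxa counts were 3 genes in shGFP and 1, 3 and 2 in shLuc. The Hoxb counts were 2 genes in shGFP and 0, 2 and 1 in shLuc. The Hoxc counts were 3 genes in shGFP and 0, 3 and 4 in shLuc. The shGFP count lay within the range of the shLuc libraries in each of the 4 clusters.

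By position along the axis, a promoter peak in at least 1 library was found at 8 of 12 anterior genes (paralog groups 1 to 4). It was found at 3 of 11 central genes (groups 5 to 8) and 8 of 16 posterior genes (groups 9 to 13). The share of all coding genes was 64.7%. Without shLuc replicate 2 the counts of anterior, central and posterior genes were 8, 2 and 4. The posterior genes Hoxb9, Hoxd9, Hoxd10 and Hoxd11 had their peak in that library only. The central genes had 2 in shGFP and 0, 2 and 2 in shLuc. The anterior genes had 5 in shGFP and 1, 5 and 6 in shLuc, and the posterior genes had 3 in shGFP and 1, 8 and 4. Paralog group 4 was the only group of which every member had a promoter peak in some library, at Hoxa4, Hoxb4, Hoxc4 and Hoxd4. In groups 2, 6 and 12 no member had one. Group 13 had 3 of 4, with Hoxb13 as the exception. The central count of 3 includes Hoxc5, whose peak lies beside the posterior gene Hoxc10. Likewise, Hoxd4 was counted only through the start region that it shares with Hoxd3. The RefSeq promoter of Hoxd4, at chr2:74721728-74722027, lay in a stretch with no peak in any library. With starts of protein-coding transcripts only, 6 anterior, 2 central and 8 posterior genes had a promoter peak in at least 1 library. The share of all coding genes counted in this way was not computed.

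Next, the whole of each cluster was examined, between the genes as well as on them. There were 23 peaks in the 4 windows in shGFP and 7, 24 and 18 in shLuc replicates 1, 2 and 3 (16.3 ± 8.62, SD, n = 3). The difference of shGFP from the shLuc mean was smaller than the SD. Per 10000 peaks of a list, the windows held 5.48 in shGFP and 3.92, 5.8 and 5.7 in shLuc. Overlapping peaks of the 4 libraries were merged into 36 regions, with 8 in Hoxa, 10 in Hoxb, 8 in Hoxc and 10 in Hoxd. Of these, 5 were found in all 4 libraries (13.9%), 6 in 3, 9 in 2 and 16 in 1 (44.4%). Over the 52714 merged regions of the genome, 27.2% were found in all 4 and 28.3% in 1. Without shLuc replicate 1, 11 regions were found in all 3 other libraries, and the share over the genome for these 3 was not computed.

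**Figure D2:**
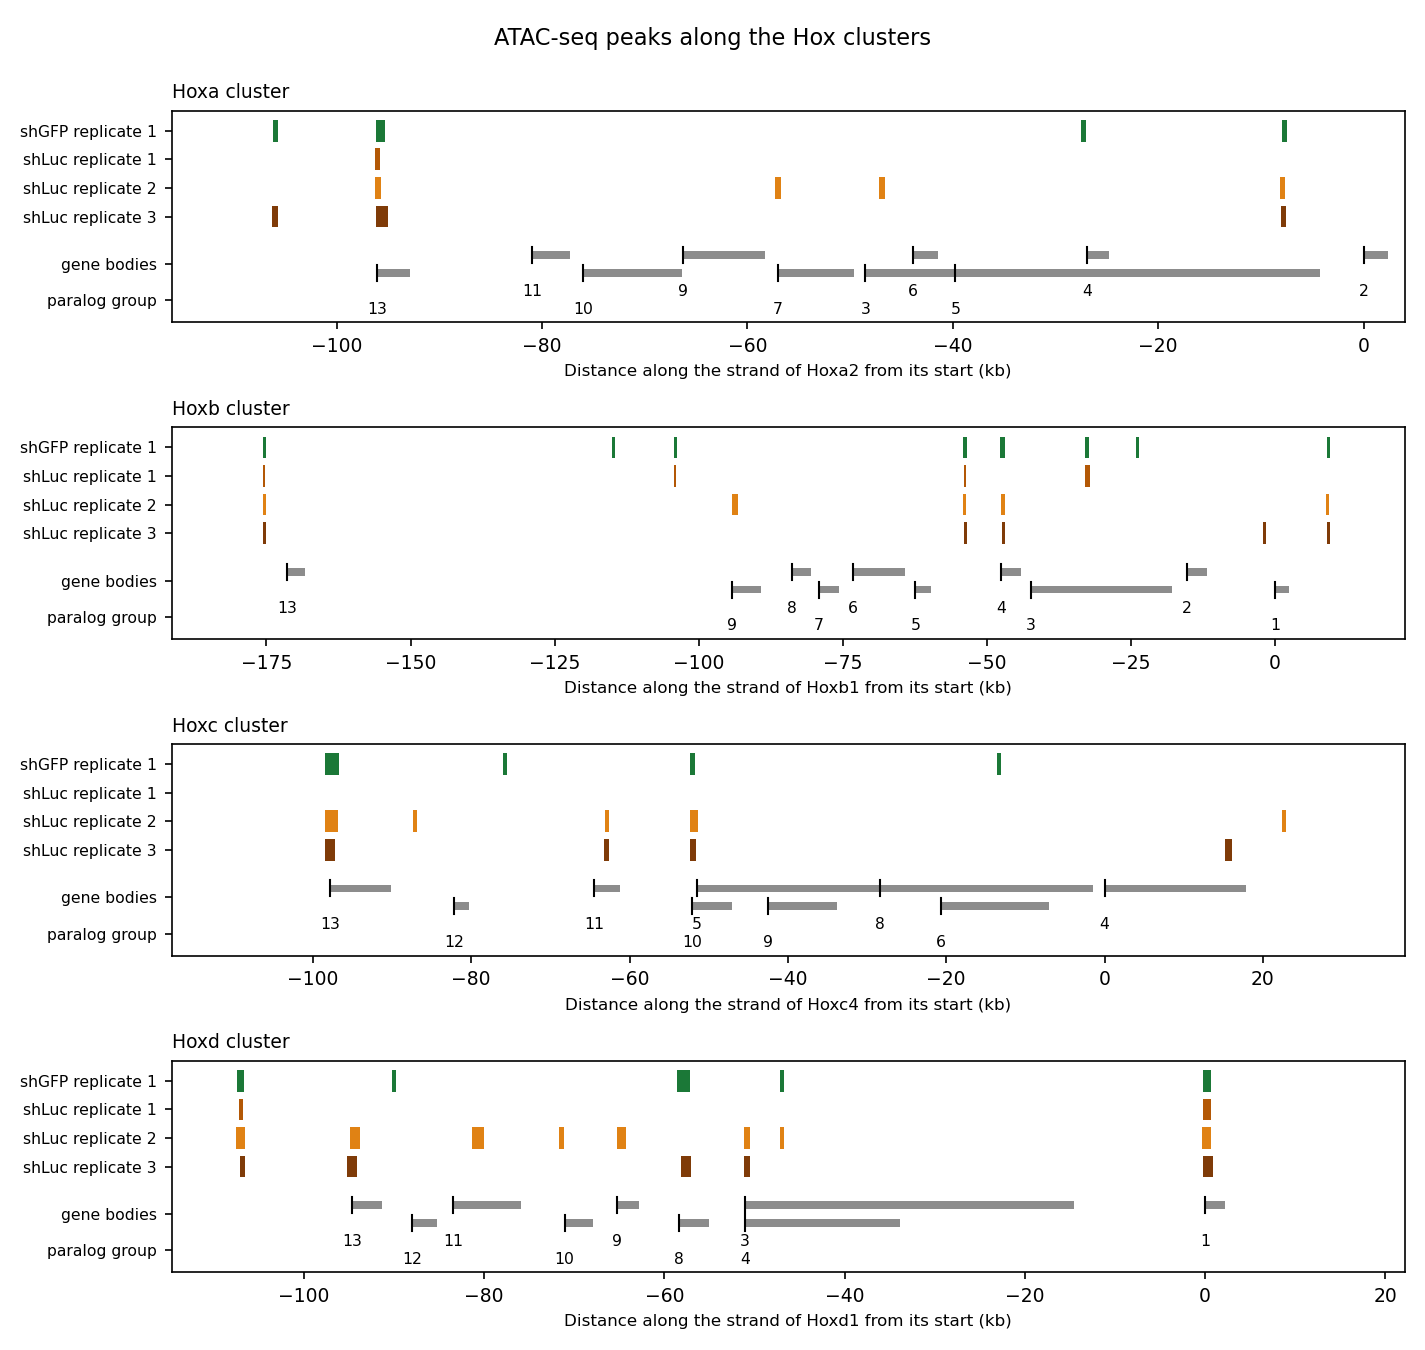
Peaks of each library along the 4 Hox clusters, with the distance in kb from the start of the gene named under each panel, along its strand, on the horizontal axis. The Hoxa panel ends 4 kb past the Hoxa2 start. Coloured bars are peaks (drawn at least 0.5 kb wide), grey bars are gene bodies with a black tick at the 5′ end, and the number under each tick is the paralog group. The row of shLuc replicate 1 holds 7 peaks and is empty over Hoxc.

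Of the 36 regions, 17 came within 1 kb of a Hox start, 4 within 1 kb of the start of another gene alone, and 15 lay at no start. The 17 regions stand for the 19 genes with a promoter peak, because Hoxc10 and Hoxc5, and Hoxd3 and Hoxd4, share theirs. Regions at Hox starts were wide, with a median of 1073 bp, a median GC content of 65.1% and a CpG observed over expected ratio of 0.79. The other 19 regions had a median width of 502 bp, a GC content of 57.8% and a ratio of 0.57. Medians over all regions of the genome were 680 bp in width, 52.6% in GC content and 0.343 in the ratio. Peaks on Hox starts had a larger median width than those on all coding starts in shLuc replicates 2 and 3. It was about equal in shGFP and smaller in shLuc replicate 1. The median at Hox starts was 926 bp in shGFP and 578, 1035 and 979 bp in shLuc, against 921, 683, 888 and 863 bp at all coding starts. The Hox medians rest on 9 peaks in shGFP and 2, 13 and 10 peaks in shLuc.

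Of the 5 regions found in every library, 3 were at no start site. Distances of such regions run from their centre to the nearest Hox start. The region before Hoxb13 lay 3950 bp upstream of its start and had peaks of 377 bp in shGFP and 290, 459 and 353 bp in shLuc. Hoxb13 itself, a tail and prostate patterning gene, had no promoter peak. The region between Hoxb5 and Hoxb4 lay 6293 bp upstream of Hoxb4, with peaks of 618 bp in shGFP and 422, 515 and 622 bp in shLuc. The region in Evx2 lay 12361 bp upstream of Hoxd13, with peaks of 807 bp in shGFP and 328, 930 and 574 bp in shLuc. Evx2 had no promoter peak in any library. In these 3 regions the narrowest peak was each time that of shLuc replicate 1. The other 2 regions were those at Hoxa13 and Hoxd1.

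All 7 peaks of shLuc replicate 1 in the clusters overlapped a peak of shGFP. Besides the 5 regions named, they were a region at the non-coding gene Gm53, 9811 bp upstream of Hoxb9 (276 bp wide in shGFP, 308 bp in shLuc replicate 1), and a region in an intron of Hoxb3 (678 and 825 bp). Neither had a peak in shLuc replicates 2 or 3. Between the other 3 libraries a smaller share of regions was common in the clusters than in the lists at large, in all 6 ordered pairs. Of the 23 regions of shGFP, 56.5% had a peak in shLuc replicate 2, and of all regions of shGFP 79.7% did. Of the 24 regions of shLuc replicate 2, 58.3% had a peak in shLuc replicate 3, and of all its regions 67.1% did. Of the 18 regions of shLuc replicate 3, 72.2% had a peak in shGFP, and of all its regions 88.8% did.

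The other regions away from Hox starts were each found in 3 libraries or fewer. In 3 libraries a region 8693 bp downstream of the Hoxb1 start had peaks of 242 bp in shGFP and 364 and 265 bp in shLuc replicates 2 and 3. A region at Gm15050, 7804 bp upstream of Hoxa2, had peaks of 513, 430 and 370 bp in the same 3 libraries. Both lie at the anterior end of their cluster, near genes that had no promoter peak themselves. In 2 libraries there were regions 9953 bp upstream of Hoxa13 (336 bp in shGFP, 531 bp in shLuc replicate 3), in an intron of Hoxc11 (576 and 714 bp in shLuc replicates 2 and 3) and at Hoxd3os1 (337 bp in shGFP, 317 bp in shLuc replicate 2). Regions in 1 library were found in shGFP at Gm53 (363 bp), 6460 bp past the Hoxc12 start (509 bp), in an intron shared by Hoxc5 and Hoxc6 (255 bp) and 2027 bp before Hoxd12 (411 bp). In shLuc replicate 2 they were in an intron of Hoxa3 (599 bp), 4877 bp before Hoxc12 (339 bp) and 7193 bp past the Hoxc4 start (532 bp), and in shLuc replicate 3 there was 1 at 1758 bp before Hoxb1 (318 bp). All of these were narrower than the median region at a Hox start.

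Long stretches of the clusters had no peak in any library, and the lengths of such stretches over the genome were not examined. Of the non-overlapping genome windows as long as the Hoxa window, 20.5% held no peak in shGFP and 48.3%, 20% and 27.3% in shLuc. In Hoxa a stretch of 37.7 kb (chr6:52222130-52259825) held the 5′ ends of Hoxa9, Hoxa10 and Hoxa11. In Hoxb the longest, of 60.2 kb (chr11:96190618-96250849), held that of Hoxb13 alone, and a shorter one of 39.1 kb (chr11:96272553-96311630) held the 5′ ends of Hoxb5, Hoxb6, Hoxb7 and Hoxb8. In Hoxc a stretch of 37.9 kb (chr15:102967643-103005519) held those of Hoxc6, Hoxc8 and Hoxc9. In Hoxd the longest, of 46.4 kb (chr2:74716200-74762644), held further annotated starts of Hoxd3 and Hoxd4 and ended at Hoxd1. The genes in the stretches of Hoxa, Hoxb and Hoxc were central or posterior.

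Peaks covered a larger part of the Hox windows than of the genome in every library. They covered 2.27% of the 651815 bp of the windows in shGFP and 0.511%, 2.73% and 2.02% in shLuc (1.75% ± 1.13, SD, n = 3). The genome was covered to 1.13% in shGFP and 0.444%, 1.09% and 0.852% in shLuc. The ratio of the 2 was 2.01 in shGFP and 1.15, 2.5 and 2.37 in shLuc (2.01 ± 0.744, SD, n = 3). The windows are unusual stretches of genome. They held 9 to 13 protein-coding starts each, more than in at least 97.6% of tiles of the same length, where tiles are the non-overlapping windows that fill the genome. Their CpG observed over expected ratio was 0.32 to 0.45 against a tile median of 0.18, and their repeat content 16.9% to 25% against a tile median of 32.7% or 32.8%.

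Divided by the mean of tiles of its own length, the cover was highest for Hoxd in each of the 4 libraries. Peaks covered 2.86% of the Hoxd window in shGFP, more than in 91.2% of tiles. In shLuc replicates 1, 2 and 3 they covered 0.881%, 5.14% and 3.3%, more than in 80.1%, 99.5% and 97.9% of tiles. Hoxa was covered to 2.54% in shGFP and 0.191%, 2.43% and 1.97% in shLuc, and Hoxc to 2.04% and 0%, 2.62% and 2.32%. Hoxb was covered to 1.89% in shGFP and 0.862%, 1.47% and 1.01% in shLuc. The cover of a window divided by the tile mean was, in shLuc, 3.43 ± 1.35 for Hoxd, 1.61 ± 1.04 for Hoxa, 1.66 ± 1.44 for Hoxc and 1.46 ± 0.393 for Hoxb (SD, n = 3). In shGFP it was 2.46, 2.19, 1.75 and 1.63 in the same order, within 1 SD of the shLuc mean in each cluster. In shLuc replicate 1 Hoxd and Hoxb were close, at 1.93 and 1.9, and Hoxb was above 80.9% of its tiles. Against tiles with at least 5 protein-coding starts the ratios were lower. The ratio was 1.02 for Hoxd in shGFP and 0.627, 1.9 and 1.56 in shLuc. For Hoxb it was below 1 in all 4 libraries, at 0.786 in shGFP and 0.742, 0.64 and 0.555 in shLuc. For Hoxa it was also below 1 in all 4, at 0.925 in shGFP and 0.14, 0.92 and 0.95 in shLuc. For Hoxc it was 0.759 in shGFP and 0 in shLuc replicate 1, and above 1 in shLuc replicates 2 and 3, at 1.02 and 1.14.

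**Figure D3:**
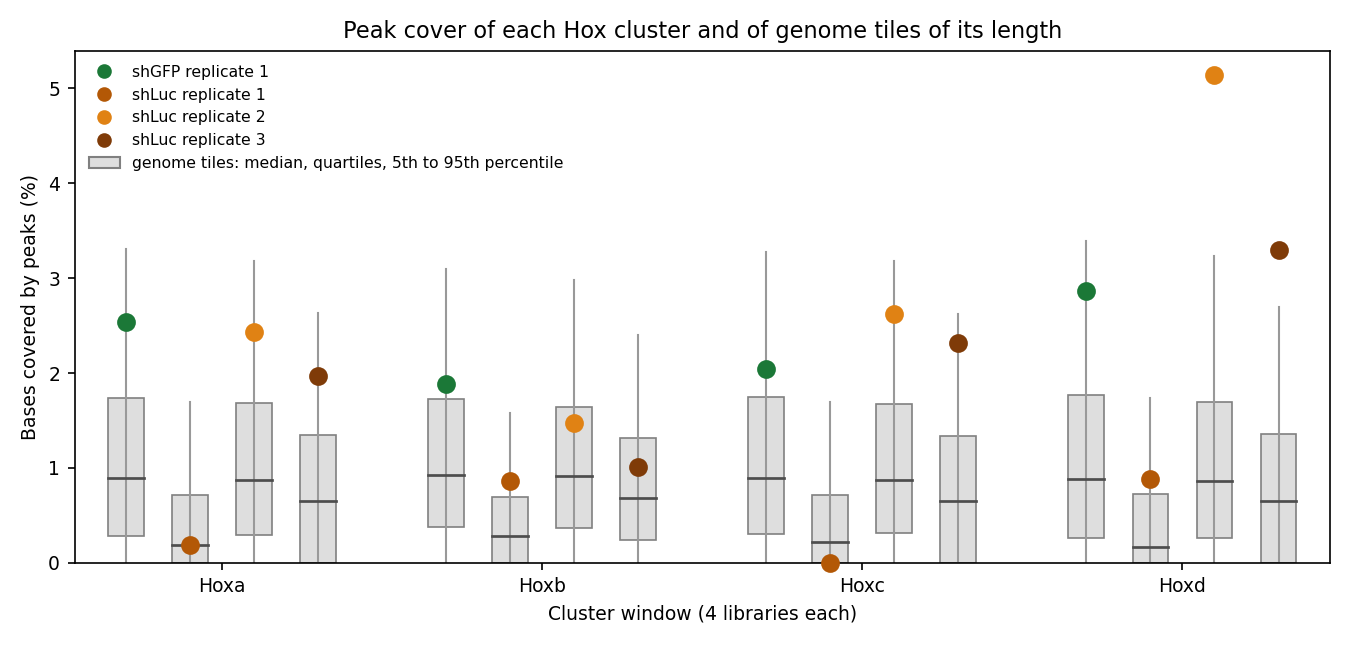
Percent of bases covered by peaks in each Hox cluster window (points, 1 per library) beside genome tiles of the same length in that library (grey: median line, box of quartiles, line from the 5th to the 95th percentile). The Hoxd points of shLuc replicates 2 and 3, at 5.14% and 3.3%, lie above the lines of their tiles, and the Hoxc point of shLuc replicate 1 is at 0%.

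Hox starts were next set beside starts of like sequence. Over the 1 kb around the 5′ end of the gene, the median GC content of the 39 Hox genes was 57.5% and the median CpG observed over expected ratio 0.68. A promoter peak could lie at another annotated start, as at Hoxb3, Hoxc4 and Hoxd11, where the sequence measured was not that at the peak. The medians over all coding genes were 54.8% and 0.55, and over the 14195 coding genes with a promoter peak in some library they were 58.4% and 0.70. The 19 Hox genes with a promoter peak had medians of 60.2% and 0.70, and the 20 Hox genes without had 54.95% and 0.64. For the 7743 coding genes without a promoter peak they were 45.7% and 0.18. Hox genes without a peak thus had CpG-richer 5′ ends than coding genes without a peak, by 0.64 against 0.18 in the ratio. The start at the 5′ end of a gene was called CpG-rich at a GC content of at least 55% and a ratio of at least 0.75. Among the 5426 coding genes with such a start, 92.7% had a promoter peak in shGFP and 81.3%, 92.3% and 86.5% in shLuc. Of the 9 Hox genes with such a start, which were Hoxa4, Hoxa13, Hoxb7, Hoxb9, Hoxc11, Hoxc12, Hoxd1, Hoxd9 and Hoxd13, 3 had a promoter peak in shGFP and 2, 5 and 3 in shLuc. In all 4 libraries 2 of the 9 had one (22.2%), against 74.9% of the CpG-rich coding genes, and in at least 1 library 6 had one, against 96.4%. Hoxb7, Hoxc11 and Hoxc12 had one in no library (33.3% of the 9), against 3.59% of the CpG-rich coding genes.

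Other families of developmental transcription factors are shown for comparison. A promoter peak was found at 68.2% of 44 Fox genes in shGFP and at 43.2%, 65.9% and 56.8% in shLuc. For 19 Sox genes the values were 57.9% in shGFP and 26.3%, 57.9% and 47.4% in shLuc. For 15 T-box genes they were 53.3% and 26.7%, 46.7% and 40%, and for 9 Pax genes 55.6% and 11.1%, 44.4% and 33.3%. The Hox share was the lowest of the 5 families in each of the 4 libraries, and the difference from Pax in shLuc replicate 3 was 30.8% against 33.3%, with 9 Pax genes. Outside these families, 3 of 6 ParaHox genes had one in shGFP and 1, 3 and 1 in shLuc. For 13 other homeobox genes the counts were 5 and 4, 4 and 4. The ParaHox share was below the Hox share in shLuc replicate 3 only. That of the other homeobox genes was below it in shLuc replicate 2, equal in replicate 3 and above it elsewhere.

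**Figure D4:**
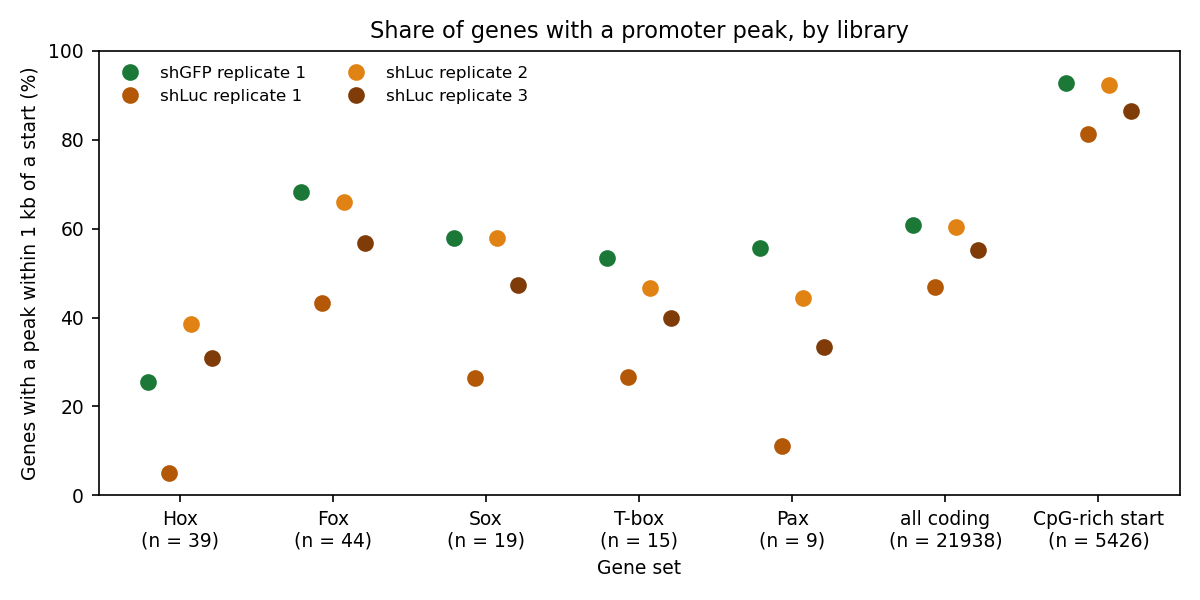
Percent of genes with a promoter peak in each library (1 point per library) for Hox genes, the Fox, Sox, T-box and Pax families, all coding genes and coding genes with a CpG-rich start, with the number of genes under each name. The Hox points lie between 5.13% and 38.5%, and the points of all coding genes between 46.8% and 60.7%.

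The lists differ in length, so the widest 17860 peaks of each list were also compared. This keeps the whole list of shLuc replicate 1, whose median width (603 bp) was the smallest, and trims the others, with 655, 642 and 663 bp before trimming, to their wider peaks. At this equal length 6 Hox genes had a promoter peak in shGFP and 2, 10 and 11 in shLuc, against 47.3% of all coding genes in shGFP and 46.8%, 46.2% and 46% in shLuc. The share of coding genes was then almost the same in all libraries, while the Hox count was 2 in shLuc replicate 1 and 10 and 11 in replicates 2 and 3.

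The comparison of the hairpins asks how far non-targeting controls differ. The 10 Hox genes of shGFP stood against 9.67 ± 6.81 in shLuc (SD, n = 3), a difference of 0.333 genes that was smaller than the SD. Without shLuc replicate 1 the difference changed direction, to 3.5 genes fewer in shGFP (as shGFP minus shLuc, -3.5), which was larger than the SD of 2.12 of the 2 libraries left. With 1 library against 3 an exact permutation test cannot give a p below 0.25, so none is given.

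Non-coding genes of the clusters were also examined. Haglr, a long non-coding RNA that shares its start region with Hoxd1, and the small RNA gene Gm27280 beside Hoxa13 had a promoter peak in all 4 libraries. The antisense gene Gm15050 in Hoxa and the antisense gene Hoxd3os1 in Hoxd had one in 3 libraries each. Gm53 had one in shGFP and shLuc replicate 1, Mir10a and Gm11536 in shGFP, and Gm28309 and Gm28793 in shLuc replicate 2. Hottip, Hotair, Mir196a-1, Mir196a-2, Mir196b, Mir10b and Mir615, non-coding genes known from these clusters, had none in any library. In all, 11 of 49 non-coding genes in the windows had a promoter peak in at least 1 library, with 4 of 23 in Hoxa, 3 of 10 in Hoxb, 0 of 7 in Hoxc and 4 of 9 in Hoxd. Of the 33475 genes of the genome that are not protein-coding, 14% had one. Of the genes named, Haglr, Gm27280, Mir10a, Gm11536, Gm28309 and Gm28793 were counted through peaks also within 1 kb of a Hox start. Hoxd3os1 was counted so in part. The count of non-coding genes is thus not independent of that of Hox genes.

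Genes that work with Hox genes were counted over chosen lists, beside the 42.5% of all coding genes with a promoter peak in all 4 libraries. Of 15 regulators of Hox genes, 8 had a promoter peak in all 4 libraries, among them Ezh2, Suz12, Rnf2, Cbx2 and Cbx7 of the Polycomb complexes, and Kmt2b, Men1 and Ctcf. Phc1, Pcgf2 and Jarid2 had none in any. Of 9 Hox cofactors, which bind DNA together with Hox proteins, 4 had one in all libraries (Pbx3, Pbx4, Meis3 and Pknox1), and Pbx2 and Meis2 had none. Of 10 genes of retinoic acid synthesis, breakdown and reception, 3 had one in all libraries, the enzyme gene Aldh1a2 and the receptor genes Rarb and Rxra. Of 6 ParaHox genes, the sister family of the Hox genes, 0 had one in all libraries, Pdx1 had one in 3, and Gsx1 and Cdx1 had none. Of 13 other homeobox genes, 0 had one in all libraries, 4 had one in 3 (Gbx1, Gbx2, Dlx2 and Mnx1), and 5 had none, with Evx1 and Evx2 among them.

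Sequence motifs were searched on both strands in the central 300 bp of the 36 regions and in the 24 RefSeq promoters of 22 Hox genes, and a match is a description of letters. GGGCGG was found in 50% of the Hox regions, against 29.2% of all regions, and in 41.7% of the Hox promoters, against 47.8% of 20150 promoters. The median GC content was 61% in the Hox regions and 52.6% in all regions, and the shares were not matched for it. CCAAT was found in 19.4% of the Hox regions, against 31.9% of all regions, and in 62.5% of the Hox promoters, against 37.8%. TGATNNAT, the composite site of PBX and HOX proteins, was found in 3 Hox regions (8.33%, against 6.41%) and in 4 Hox promoters (16.7%, against 7.15%), those of Hoxa2, Hoxb1, Hoxb8 and Hoxd11. TATAAA was found in 2.78% of the Hox regions, against 8.95%, and in 16.7% of the Hox promoters, against 12.1%. GCCATNTT, the YY1 motif, was found in 1 Hox region, against 10.2% of all regions, and in 1 Hox promoter, that of Hoxd10. The CTCF core motif was not in any of these windows, against 3.92% of all regions, and neither was the retinoic acid response element with a 5-base spacer (DR5), against 0.305%. With shares this low, 36 regions are too few to read an absence from.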

How the data were processed

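ATAC-seq peak lists of 4 libraries were used. According to the labels' processing notes the authors used Bowtie2, MACS2 and mm10. The MACS2 version, peak-calling settings and any shift of reads for the transposase are not given in the sources used here. In the study's methods, the section on ChIP-seq and ATAC-seq analysis opens with downloaded data. There, a read that aligned equally well at several positions was put at 1 of them at random. The deposited lists have 3 columns (chromosome, start, end), with no score, and each library was called separately. Starts were shifted to count from 1, and 21 chromosomes were used.

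The 39 genes, the gene lists, the motifs and the alternatives were chosen with earlier results of these data known. All genes of the rule were counted, and values of 1 of them are not reported here. A promoter peak lay within 1 kb of any transcript start (GENCODE mouse release 21). Overlapping peaks (at least 1 bp) were merged into regions. Cover of a window was set beside all non-overlapping tiles of its length with at most 10% unknown bases, in place of random windows. Sequence was read from RefSeq GRCm38.p6, whose coordinates are those of mm10, and repeats are its lower-case bases. No test across libraries was made, and each library's value is printed, with the SD of 3 shLuc libraries. Genes and windows are not replicates. Python 3.11.15, numpy 2.4.6, pandas 2.3.3 and matplotlib 3.10.9 were used. Functions were tested on simulated data (1500 of 1500 intervals and 50 of 50 motif searches right).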

Additional observations from a re-analysis of the deposited data

How the results depend on the processing

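Of 156 comparisons of 23 results with 16 alternatives, 127 stayed within the tolerance (1.5 times for counts, 1 SD of shLuc for other values) and 29 moved further, 20 of them lower and 9 higher. For peaks up to 5 kb from a start and for the widest 50% of each list, the share of all coding genes was not computed. Whether those counts moved more than for other genes is therefore not known. With peaks up to 5 kb from a start, 16 Hox genes had one in shGFP, 4 had one in all libraries and 11 in none, with 7 Hoxa, 5 Hoxb, 7 Hoxc, 5 central and 13 posterior genes in at least 1 library. With the widest 50% of each list, 1 Hox gene had a promoter peak in all libraries, 2 Hoxa and 4 anterior genes had one in at least 1, the windows held 9 peaks in shGFP and 7.33 in shLuc, and the Hoxb ratio to tiles was 0.771. At equal list length, 6 Hox genes had a promoter peak in shGFP, 1 had one in all libraries and 2 Hoxa genes in at least 1, and the windows held 7 peaks in shGFP and 9.33 in shLuc. Regions in all libraries numbered 3 when 50% of a region had to be covered. Against tiles with at least 1 coding start the Hoxb ratio was 1.02, and with at least 5 it was 0.646, with Hoxd at 1.36. A value within the tolerance can still have changed direction, because the SD of shLuc was wide. With at least 5 coding starts the Hoxa ratio fell from 1.61 to 0.67 and the Hoxc ratio from 1.66 to 0.719, both within it. The change of shGFP minus shLuc to -3.5 genes without shLuc replicate 1 was also within it. The Hox share minus that of CpG-rich coding genes was -67.02 points in shGFP and -61.94 in shLuc.

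Leaving out each shLuc library in turn gave 2 to 7 Hox genes with a promoter peak in all libraries and 5 to 11 regions in all libraries, each time highest without shLuc replicate 1, and 20 to 25 Hox genes with none. Leaving out each of the 4 libraries, chosen after seeing the data, gave 5 to 8 Hoxd, 4 to 8 posterior, 6 to 8 anterior, 2 to 3 central, 3 to 4 Hoxa, 2 to 3 Hoxb and 3 to 4 Hoxc genes in at least 1 library. The shLuc mean was 7 to 13.5 genes, and shGFP minus shLuc -3.5 to 3. The shLuc mean of the windows was 12.5 to 21 peaks and 1.26% to 2.37% of bases. The causes were not tested. No paired analysis was possible because there was 1 shGFP library against 3 shLuc libraries and no test. Without scores or read counts, how far a site lay from the authors' threshold is unknown.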
